A study of Mus musculus with 30 samples.

Results

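Retinoic acid synthesis and handling is described here through 9 genes, *Rbp4*, *Stra6*, *Lrat*, *Rdh10*, *Dhrs3*, *Aldh1a1*, *Aldh1a2*, *Aldh1a3* and *Cyp26b1*, of 32386 gene symbols measured. They were chosen by name for their steps in the pathway. The study listed *Aldh1a1*, *Aldh1a2*, *Aldh1a3* and *Rdh10* among vitamin A genes that differed in these same samples, so their directions below are not independent evidence. Retinol travels in blood on RBP4, enters cells through the receptor STRA6 and is stored as esters made by LRAT. RDH10 oxidises retinol to retinaldehyde, DHRS3 reduces it back, the ALDH1A enzymes oxidise retinaldehyde to retinoic acid, and CYP26B1 degrades retinoic acid. In the gut, retinoic acid is known for giving lymphocytes their gut-homing receptors and for supporting regulatory T cells and IgA.

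The data are RNA sequencing of 10 stromal populations sorted from the lamina propria of untreated C57BL6/Nrj mice aged 8 to 10 weeks, with 3 libraries per population and 30 in all. Small intestine (SI) gave pericytes, smooth muscle cells (SMC) and the PDGFRα hi, Fgfr2+ and CD34+ subsets of fibroblasts (FB), and colon gave pericytes and PDGFRα hi, Fgfr2+, CD90+ and CD81+ FB. SI CD34+ FB are a mix of Igfbp5+ and CD81+ FB. Libraries held 2245052 to 19096945 estimated counts with a median of 9601683, and the smallest was SI Fgfr2+ FB replicate 3.

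Gates for a subset of the same name differed between the tissues: Fgfr2+ FB were sorted as CD34- cells in SI and as CD34+ cells in colon, and PDGFRα hi FB, CD34- in both tissues, were sorted on PDGFRα in SI and on PDPN in colon. In these FB subsets tissue and gate therefore cannot be told apart. Pericytes had the same gate in both tissues. The labels give small and large intestines of 3 individual mice, and the study describes both tissues as taken from the same animals. Which libraries share a mouse is not stated. *Rgs5*, a pericyte marker, had 31731 ± 8846 CPM (SD, n = 3) in SI pericytes and 33484 ± 8469 CPM in colonic pericytes, where CPM is the count scaled to a common library size. *Myh11* of smooth muscle had 11502 ± 2001 CPM in SMC and also 6991 ± 158 CPM in colonic pericytes. A list of 4 PDGFRα hi FB markers (*Bmp3*, *Bmp5*, *Bmp7* and *F3*) summed to 4489 ± 107 CPM in the SI subset of that name and 3976 ± 315 CPM in the colonic one, and to at most 755 CPM on average in any other population. Bulk libraries do not tell fewer cells of a type from less RNA per cell.

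The carrier *Rbp4* was highest in PDGFRα hi FB of both tissues. Its level was 97.1, 67.6 and 152 CPM in the 3 colonic PDGFRα hi FB libraries. In SI PDGFRα hi FB it was 35.9, 88.8 and 12.3 CPM, a range that overlapped the colonic one. Colonic CD90+ FB came next with 24.9 ± 9.33 CPM (SD, n = 3) and overlapped the SI libraries, and colonic Fgfr2+ FB at 11.3 ± 3.96 CPM did not overlap CD90+ FB. Colonic CD81+ FB had 5.18 ± 3.49 CPM. The SI CD34+ FB, Fgfr2+ FB and SMC had means of 1.25, 2.13 and 1.25 CPM, which overlapped one another. Pericytes had almost none: 1 count in each of the 3 SI libraries, and 1 count in 1 of the 3 colonic libraries.

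*Stra6*, the retinol receptor, was low everywhere. Its highest mean CPM, 5.92 ± 8.23 (SD, n = 3), was in colonic Fgfr2+ FB, where replicate 2 held 157 counts, replicate 3 held 22 and replicate 1 held 0. Neighbouring populations in the order of *Stra6* means overlapped in every case. SI Fgfr2+ FB and SI pericytes each held 1 count over their 3 libraries.

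*Lrat*, which makes the storage esters, was highest in SI Fgfr2+ FB, at 220, 376.5 and 775.5 CPM. All 3 of these libraries lay above every library of the other 9 populations. SI CD34+ FB followed at 57.2, 102 and 143 CPM. From there down each population overlapped the next: SMC 33.8 ± 27.8 CPM (SD, n = 3), SI pericytes 19.5 ± 23.0 CPM, colonic pericytes 7.58 ± 5.14 CPM, and the SI PDGFRα hi FB and the 4 colonic FB subsets at most 3.31 CPM on average. In colonic Fgfr2+ FB *Lrat* had 10, 15 and 0 counts.

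*Rdh10*, the retinol dehydrogenase that starts synthesis, was ordered more sharply. SI Fgfr2+ FB had 878, 793 and 570.5 CPM. SI PDGFRα hi FB had 390.3, 279.6 and 363 CPM, and colonic PDGFRα hi FB had 147, 165 and 172 CPM. Each of these populations lay apart from the next, and colonic PDGFRα hi FB lay apart from SMC at 115 ± 20.8 CPM (SD, n = 3). SMC, colonic CD90+ FB, colonic Fgfr2+ FB and SI CD34+ FB, with means of 72.3 to 115 CPM, overlapped their neighbours. Colonic pericytes at 43.9 ± 12.1 CPM lay below these and above colonic CD81+ FB at 21.7 ± 6.83 CPM, which overlapped SI pericytes at 13.8 ± 17.5 CPM.

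*Dhrs3*, whose product runs that step backwards, had an order unlike that of *Rdh10*. Its mean was 77.9 ± 14.2 CPM (SD, n = 3) in colonic CD81+ FB, and the colonic subsets and the SI CD34+ FB and pericytes all had means of at least 41.2 CPM. SI PDGFRα hi FB had 8.99 ± 6.15 CPM, SI Fgfr2+ FB 8.80 ± 12.1 CPM and SMC 1.49 ± 1.12 CPM. The gap between colonic PDGFRα hi FB and SI PDGFRα hi FB was the only one between neighbours in this order without overlap. Replicates of colonic Fgfr2+ FB spanned 6.72, 57.2 and 110 CPM of *Dhrs3*.

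Among the 3 retinaldehyde dehydrogenases, *Aldh1a2* and *Aldh1a3* had their highest means in SI Fgfr2+ FB and *Aldh1a1* in SI PDGFRα hi FB. *Aldh1a1* was 1352, 1984 and 1192 CPM in SI PDGFRα hi FB. In colonic PDGFRα hi FB it was 601, 548 and 646 CPM, and in SI Fgfr2+ FB 118, 239 and 120.3 CPM. These 3 populations did not overlap one another. The other FB subsets and SMC ran from 35.3 to 112 CPM on average, and among them colonic CD90+ FB, at 35.3 ± 4.77 CPM (SD, n = 3), lay apart from its neighbours on both sides. Pericytes had 10.0 ± 8.05 CPM in colon and 3.31 ± 2.56 CPM in SI.

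*Aldh1a2* had higher means in SMC and the SI FB subsets than in any colonic population. SI Fgfr2+ FB had 933, 644 and 323 CPM, SMC had 578, 516 and 693 CPM, and SI PDGFRα hi FB had 604, 745 and 363 CPM. SI CD34+ FB had 425, 478 and 405 CPM. These 4 SI populations overlapped as neighbours, and the lowest of the 4 by its mean lay above colonic PDGFRα hi FB, which had 212, 205 and 201 CPM. Colonic Fgfr2+ FB (201 ± 31.2 CPM, SD, n = 3), CD90+ FB (178 ± 50.7 CPM) and CD81+ FB (73.0 ± 58.8 CPM) overlapped in turn. Pericytes lay apart below them, with 7.15 ± 9.68 CPM in SI and 0.813 ± 0.881 CPM in colon.

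*Aldh1a3* was highest in SI Fgfr2+ FB, at 1966, 1648 and 921 CPM, above every library of the other 9 populations. SMC had 647, 670.4 and 319 CPM. SI PDGFRα hi FB had 257, 464 and 181 CPM and overlapped SMC and SI CD34+ FB, which had 217 ± 68.2 CPM (SD, n = 3). The colonic means were 92.7 CPM in CD90+ FB, 79.6 CPM in Fgfr2+ FB, 19.9 CPM in CD81+ FB and 15.8 CPM in PDGFRα hi FB, and pericytes had 7.84 CPM in SI and 2.58 CPM in colon. In this lower range colonic Fgfr2+ FB lay apart from CD81+ FB, and the other neighbours overlapped.

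*Cyp26b1*, the degrading enzyme, stood mostly on single libraries in pericytes and in PDGFRα hi FB. Colonic pericyte replicate 3 held 209 counts while replicates 1 and 2 held 3 and 0. SI pericyte replicate 3 held 61 counts and the other SI pericyte libraries 0. Colonic PDGFRα hi FB held 3, 0 and 41 counts, and SI PDGFRα hi FB held 0, 17 and 0. SI Fgfr2+ FB had 0 counts in all 3 libraries, against a floor of 3 counts per library that equals 0.209, 0.271 and 1.04 CPM and covers counting error only. Colonic Fgfr2+ FB held 1, 47 and 44 counts, whose sum, scaled for library size, was 10.0-fold that floor summed over the SI libraries. Colonic replicate 1, at 0.103 CPM, lay below the floor of each SI library, and the tissue difference was not called (adjusted p = 0.158). Of the 81 pairs of neighbours in the orders of all 9 genes, 64 overlapped and 17 did not. The orders were set by the means of the same libraries, and the share over all genes was not taken. These counts therefore only describe the 9 genes and do not set them apart from others.

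**Figure D1:**
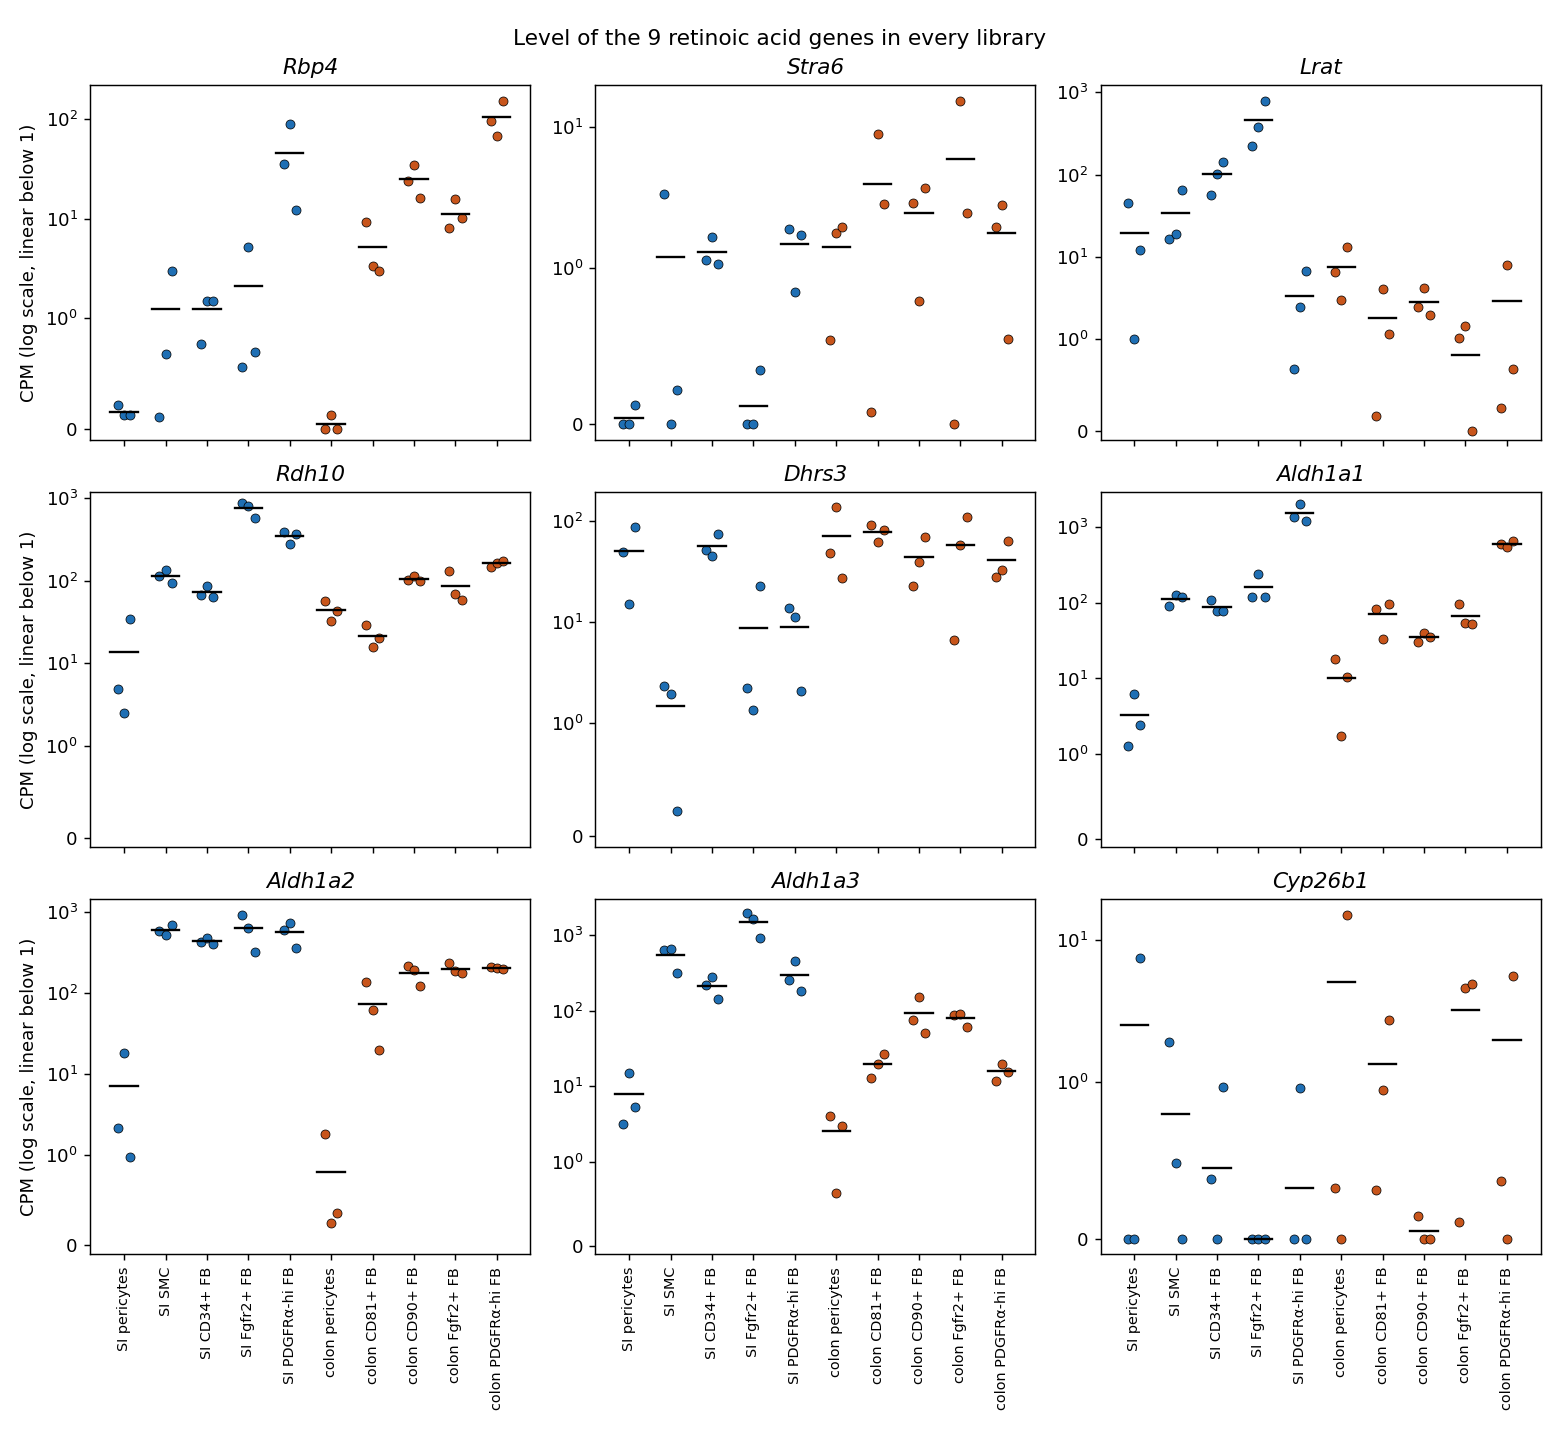
Level of each of the 9 genes in CPM (log axis, linear below 1) in the 3 libraries of each population, as points, with the mean as a bar, and blue is SI and orange is colon. *Lrat* and *Aldh1a3* in SI Fgfr2+ FB lie above all libraries of the other 9 populations.

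Levels of different genes were compared as CPM per kilobase of effective transcript length. On this scale the 3 *Aldh1a* genes summed to 1229 ± 358 (SD, n = 3) in SI PDGFRα hi FB, of which *Aldh1a1* made up 66.3%. In SI Fgfr2+ FB the sum was 992 ± 347, with 61.0% from *Aldh1a3*. SMC had 637 ± 51.1, of which *Aldh1a2* and *Aldh1a3* made up 45.5% and 45.1%. The leading gene differed between SI PDGFRα hi FB and SI Fgfr2+ FB, whose sums differed by less than their SD. In colon the per-kilobase sum was 431 ± 25.6 in PDGFRα hi FB, with 75.0% from *Aldh1a1*, and *Aldh1a2* led in Fgfr2+ FB with 57.5% of 170.3 ± 25.6 and in CD90+ FB with 59.0% of 149 ± 43.3. Pericytes had sums of 9.73 ± 8.88 in SI and 7.43 ± 5.62 in colon.

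**Figure D2:**
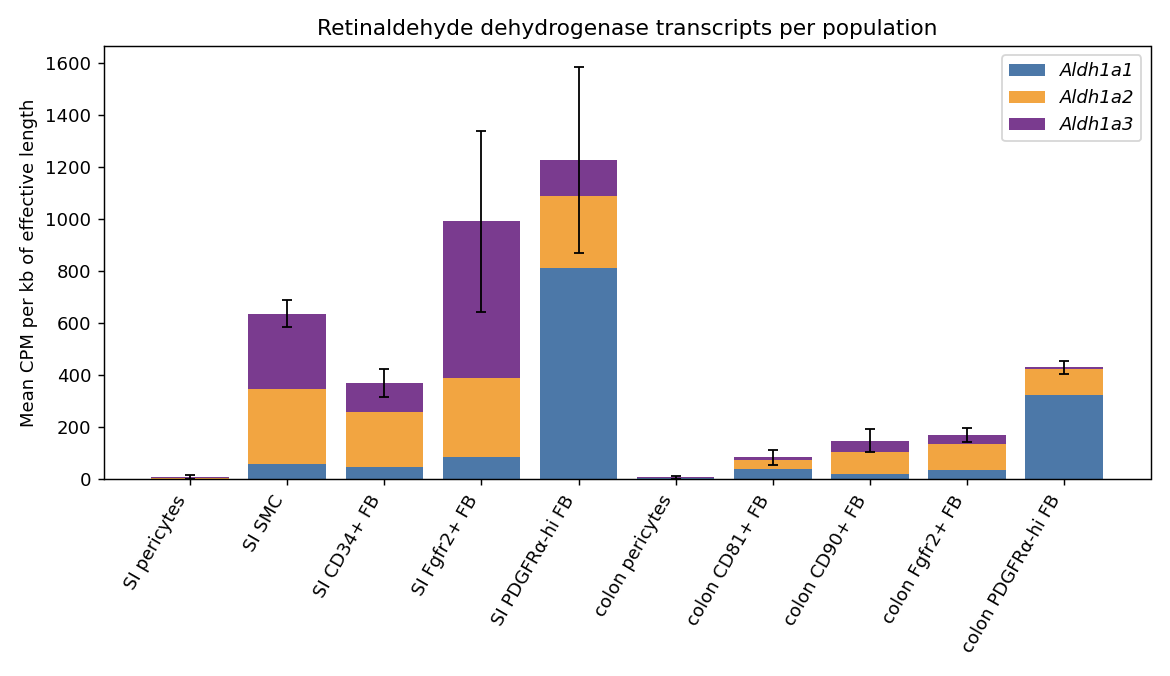
Mean CPM per kilobase of effective length of *Aldh1a1*, *Aldh1a2* and *Aldh1a3*, stacked from 0, in each population (n = 3 libraries); error bars are the SD of the sum. *Aldh1a1* makes up most of the bar in PDGFRα hi FB of both tissues and *Aldh1a3* most of the bar in SI Fgfr2+ FB.

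The SI and colonic PDGFRα hi FB were compared to ask how a subset of the same name differs by tissue. *Aldh1a3* was higher in SI, with no overlap between the 3 and 3 libraries, while colonic libraries had 11.8, 19.9 and 15.8 CPM. Its log2 fold change, SI minus colon, was 4.203 ± 0.39 (SE), with an adjusted p of 1.42e-05 by edgeR's quasi-likelihood test with Benjamini-Hochberg adjustment over all genes tested. A gene was called at an adjusted p under 0.05 and a log2 fold change beyond 1.5 in either direction. By this rule 1 of the 9 genes was called, against 1.76% of the 15677 genes tested, and the median log2 fold change was 0.12 for the 9 and 0.004 for all. *Aldh1a1* at 1.297 ± 0.32 (adjusted p = 0.0465) and *Aldh1a2* at 1.43 ± 0.33 (adjusted p = 0.0326) passed the p-value threshold and fell short of the fold, and *Aldh1a2* was called, at 1.67, when SI PDGFRα hi FB replicate 3 was left out. Without SI PDGFRα hi FB replicate 1, 183 genes were called in place of 276. Of 52 other genes of the pathway 38 were tested and edgeR called 0, where 5 had an unadjusted p under 0.05 and DESeq2 called 3.

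Pericyte markers moved with this tissue difference. The 8 pericyte markers summed to 2936, 3417 and 2942 CPM in the SI PDGFRα hi FB libraries, with *Abcc9* the most abundant and *Higd1b* at 0, and to 459, 410 and 492 CPM in the colonic ones, again with *Higd1b* at 0. The 3 markers of interstitial cells of Cajal (*Kit*, *Ano1* and *Etv1*), led on average by *Etv1*, summed to 469 ± 39.3 CPM (SD, n = 3) in SI and 253 ± 33.2 CPM in colon, with *Ano1* going the other way. The 6 smooth muscle markers, led by *Myh11* in SI and *Acta2* in colon, had 2862.5 ± 780 CPM and 1663 ± 576 CPM, and the libraries overlapped. Of these, *Actg2* went the other way, with 7.61 CPM in SI and 28.2 CPM in colon. The part of these markers in the result was not tested. SI pericytes themselves had 7.84 ± 6.31 CPM (SD, n = 3) of *Aldh1a3*, below every SI PDGFRα hi FB library, and SMC, at 545 ± 196 CPM, overlapped them.

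In Fgfr2+ FB the tissue difference took in storage, the first oxidation and the second. *Lrat*, *Rdh10*, *Aldh1a3* and *Aldh1a2* were higher in SI, each with all 3 SI libraries above all 3 colonic ones. For *Rdh10* the colonic libraries had 131, 68.6 and 58.7 CPM. *Aldh1a3* had 87.2, 90.4 and 61.2 CPM there and *Aldh1a2* had 237, 186 and 180 CPM. The log2 fold change was 9.11 ± 1.29 (SE) for *Lrat* (adjusted p = 0.000810), on 25 counts in colon, and 4.27 ± 0.39 for *Aldh1a3* (adjusted p = 1.57e-05). *Rdh10* differed by 3.14 ± 0.32 (adjusted p = 4.07e-05) and *Aldh1a2* by 1.68 ± 0.33 (adjusted p = 0.00918). These were 4 of 9 genes called, against 3.09% of all genes tested, with medians of 1.27 for the 9 and 0.015 for all.

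The *Aldh1a2* call was lost without SI Fgfr2+ FB replicate 1 (1.32), colonic Fgfr2+ FB replicate 2 (1.62) or colonic replicate 3 (1.59), and in a model of all 30 libraries (adjusted p = 0.284; 1.23e-04 to 0.284 over its alternatives). *Aldh1a1*, at 1.27 ± 0.32, missed the fold threshold and was called, at 1.64, without colonic Fgfr2+ FB replicate 1. *Dhrs3* had a log2 value of −2.70 ± 1.08 that was not called (adjusted p = 0.201) and was called, at −4.97, without SI Fgfr2+ FB replicate 3. *Rbp4*, at −2.27 ± 0.80, was not called by edgeR and was called without SI Fgfr2+ FB replicate 2 (−4.19) and by DESeq2 (−2.30). *Stra6* was called without colonic Fgfr2+ FB replicate 1 and by DESeq2, and its ratio of summed counts, SI over colon and scaled for library size, was 0.00571 (95% interval 0.000144 to 0.0322, counting error only). Over all genes, 297 were called without colonic Fgfr2+ FB replicate 2 and 275 without replicate 3, in place of 485.

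Among the other pathway genes, 2 of 38 tested were called, both lower in SI Fgfr2+ FB: *Adh1*, an alcohol dehydrogenase that also oxidises retinol, at −4.56 ± 0.84 (SE; adjusted p = 0.00552), and *Ces1d*, a carboxylesterase, at −1.73 ± 0.43 (adjusted p = 0.0343). *Adh1* had 4.44 ± 2.099 CPM (SD, n = 3) in the SI libraries of this subset, against 107 ± 26.8 CPM in the colonic libraries. The *Ces1d* call was lost whichever of the 6 libraries was left out, with log2 values of −1.86 to −1.57, and in a model of all 30 libraries. Pericyte markers summed to 2183, 1848 and 2035 CPM in the SI libraries and 540, 658 and 773 CPM in the colonic ones, with *Rgs5* the most abundant in both and 0 of 8 markers at 0 in all 3 libraries. *Kcnj8*, *Abcc9* and *Higd1b* went the other way, with lower means in SI. Smooth muscle markers, 6 of 6 present and led by *Acta2*, were also higher in SI, at 703, 877 and 519 CPM against 217, 223 and 449 CPM, with *Cnn1* going the other way. The 5 endothelial markers, led by *Pecam1*, had 56.3 ± 11.1 CPM (SD, n = 3) in SI and 34.0 ± 1.28 CPM in colon, and the 4 FB markers, led by *Col1a1*, had 9802 ± 927 CPM and 16908 ± 4018 CPM. The part of these lists was not tested. SI pericytes had less *Lrat*, *Rdh10*, *Aldh1a2* and *Aldh1a3* than every SI Fgfr2+ FB library. SMC had less *Lrat*, *Rdh10* and *Aldh1a3* than every SI Fgfr2+ FB library and overlapped them in *Aldh1a2*.

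**Figure D3:**
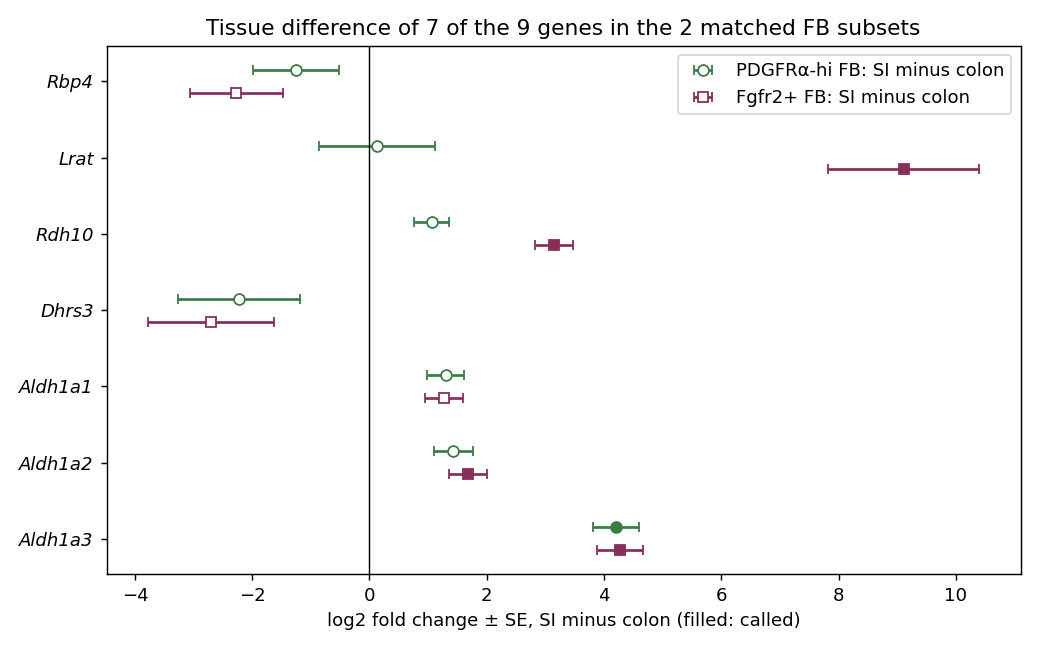
Log2 fold change, SI minus colon, with its SE for 7 of the 9 genes in PDGFRα hi FB and Fgfr2+ FB (n = 3 libraries per population); filled symbols were called, and *Stra6* and *Cyp26b1*, with 1 and 0 counts in SI Fgfr2+ FB, are not drawn. *Aldh1a3* has nearly the same value in both subsets, 4.203 and 4.274.

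Whether the tissue difference itself differed between the subsets was tested as an interaction, Fgfr2+ FB minus PDGFRα hi FB. *Lrat* and *Rdh10* had larger SI-over-colon differences in Fgfr2+ FB. The interaction was 8.99 ± 1.54 (log2, SE) for *Lrat* (adjusted p = 0.00606) and 2.08 ± 0.42 for *Rdh10* (adjusted p = 0.0191), so 2 of 9 genes were called against 1.28% of all genes tested. For *Aldh1a3* the interaction was 0.07 ± 0.49, for *Aldh1a2* 0.25 ± 0.46 and for *Aldh1a1* −0.02 ± 0.45, none of them called. The *Aldh1a1*, *Aldh1a2* and *Aldh1a3* values changed sign with 1 library left out. The *Lrat* call was lost without colonic PDGFRα hi FB replicate 2 (6.30). The *Rdh10* call was lost without SI PDGFRα hi FB replicate 2 (1.93), colonic Fgfr2+ FB replicate 2 (1.94) or 3 (1.86), or colonic PDGFRα hi FB replicate 2 (2.05) or 3 (2.04), and in a model of all 30 libraries (adjusted p = 0.367; 0.000753 to 0.367 over its alternatives). Of the other pathway genes 1 of 38 was called, *Ces1d* at −3.41 ± 0.60, a call lost with all 30 libraries (adjusted p = 0.0871; 7.40e-06 to 0.0871 over its alternatives).

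Within SI, 4 of the 9 genes were called when Fgfr2+ FB were set against PDGFRα hi FB, 2 higher in each. *Lrat* and *Aldh1a3* were higher in Fgfr2+ FB and *Aldh1a1* and *Rbp4* were higher in PDGFRα hi FB. SI PDGFRα hi FB had 0.670, 2.48 and 6.78 CPM of *Lrat*, and the log2 fold change, Fgfr2+ FB minus PDGFRα hi FB, was 7.19 ± 1.16 (SE; adjusted p = 0.00107). *Aldh1a3* differed by 2.40 ± 0.36 (adjusted p = 0.000526) and *Aldh1a1* by −3.17 ± 0.34 (adjusted p = 2.56e-05). SI Fgfr2+ FB had 8, 57 and 2 counts of *Rbp4*, whose log2 fold change was −4.25 ± 0.85 (adjusted p = 0.00636). These 4 of 9 genes compare with 4.24% of all genes tested, and all 4 calls held whichever library was left out. *Rdh10*, at 1.18 ± 0.30, passed the p-value threshold (adjusted p = 0.0324) and not the fold.

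Of the other pathway genes 3 of 38 were called, all higher in SI Fgfr2+ FB, among them *Adh1* at 4.09 ± 0.92 (log2, SE) and the lipase gene *Lpl* at 1.59 ± 0.25. The *Adh1* call was lost without SI PDGFRα hi FB replicate 1 (3.65) or 2 (4.16), and that of *Lpl* without replicate 1 or 2 of the same population, where its log2 values reached down to 1.48. The *Lpl* call was also lost in a model of all 30 libraries (1.53). Smooth muscle markers, 6 of 6 present, summed to 2252, 3741 and 2594 CPM in SI PDGFRα hi FB, led by *Myh11*, and 703, 877 and 519 CPM in SI Fgfr2+ FB, led by *Acta2*. *Des* and *Actg2* went the other way. Markers of interstitial cells of Cajal, led by *Etv1*, were also higher in PDGFRα hi FB (469 ± 39.3 CPM, SD, n = 3, against 114.5 ± 23.3 CPM), with *Ano1* going the other way. Pericyte markers had 3098 ± 276 CPM in PDGFRα hi FB, led by *Abcc9*, and 2022 ± 168 CPM in Fgfr2+ FB, led by *Rgs5*, and *Rgs5*, *Notch3*, *Mcam* and *Higd1b* went the other way. FB markers had 13645 ± 979 CPM in PDGFRα hi FB, led by *Pdgfra*, and 9802 ± 927 CPM in Fgfr2+ FB, led by *Col1a1*, and *Col1a1* and *Dcn* went the other way. The part of these lists was not tested. SMC had 112 ± 19.4 CPM (SD, n = 3) of *Aldh1a1* and 1.25 ± 1.52 CPM of *Rbp4*, less than any SI PDGFRα hi FB library.

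The same pair in colon had *Aldh1a1* and *Rbp4* higher in PDGFRα hi FB and *Aldh1a3* higher in Fgfr2+ FB. Colonic Fgfr2+ FB had 96.2, 53.5 and 52.8 CPM of *Aldh1a1*, well apart from PDGFRα hi FB, and the log2 fold change, Fgfr2+ FB minus PDGFRα hi FB, was −3.15 ± 0.34 (SE; adjusted p = 5.78e-05). *Aldh1a3* differed by 2.32 ± 0.36 (adjusted p = 0.00135). *Rbp4* had 8.06, 15.7 and 10.1 CPM in Fgfr2+ FB and differed by −3.23 ± 0.79 (adjusted p = 0.0386). These 3 of 9 genes compare with 2.27% of all genes tested. The *Rbp4* call was lost whichever of the 6 libraries was left out, with log2 values of −3.54 to −2.89, and in a model of all 30 libraries (adjusted p = 0.0971; 0.000380 to 0.159 over its alternatives). *Lrat* was not called here, at −1.80 ± 1.11, and neither was *Rdh10*, at −0.91 ± 0.30 (adjusted p = 0.163). Over all genes, 233 were called without colonic PDGFRα hi FB replicate 1 and 231 without replicate 3, in place of 356.

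Of the other pathway genes in colon 5 of 38 were called. Among them *Adh1* (6.14 ± 0.91; log2, SE), *Ces1d* (2.78 ± 0.44) and *Nr2f2* (2.38 ± 0.59), a nuclear receptor gene known to respond to retinoic acid, were higher in Fgfr2+ FB. *Bco1*, the carotenoid-cleaving oxygenase gene, was lower at −4.05 ± 1.01. The *Adh1* and *Ces1d* calls held whichever library was left out, and the *Bco1* call was lost in every such case (−4.37 to −3.29). That of *Nr2f2* was lost without colonic Fgfr2+ FB replicate 1 (1.07) or any colonic PDGFRα hi FB replicate. With the replicate number as a block *Nr2f2* and *Bco1* lost their calls, and *Bco1* did so in a model of all 30 libraries. Smooth muscle markers, 6 of 6 present and led by *Acta2*, summed to 217, 223 and 449 CPM in the colonic Fgfr2+ FB libraries and 1385, 1279 and 2324 CPM in the PDGFRα hi FB libraries, with *Des* and *Cnn1* going the other way. Markers of interstitial cells of Cajal, led by *Etv1*, had 80.9 ± 41.2 CPM (SD, n = 3) in Fgfr2+ FB and 253 ± 33.2 CPM in PDGFRα hi FB. Pericyte markers had 657 ± 117 CPM in Fgfr2+ FB, led by *Rgs5*, and 453.5 ± 41.4 CPM in PDGFRα hi FB, led by *Abcc9*, and *Abcc9*, *Kcnj8*, *Cspg4*, *Mcam* and *Esam* went the other way. Immune markers had 33.2 ± 4.98 CPM, led by *Cd74*, and 9.26 ± 4.001 CPM, led by *Ptprc*, with *Cd79a* going the other way. FB markers, led by *Col1a1*, had 16908 ± 4018 CPM and 11238 ± 2524 CPM, with *Pdgfra* going the other way, and what these lists contribute was not tested. The 4 comparisons of tissues and subsets share libraries with one another, so their values stand side by side and are not independent.

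The remaining FB comparisons asked how CD34+, CD81+ and CD90+ FB compare with their neighbours, with the spread estimated over all 30 libraries. SI CD34+ FB had less *Rdh10* and *Aldh1a3* than SI Fgfr2+ FB. *Rdh10* read 67.5, 86.7 and 62.7 CPM in SI CD34+ FB, and the log2 fold change was −3.37 ± 0.57 (SE; adjusted p = 0.00110). *Aldh1a3* read 224, 281 and 145 CPM and differed by −2.80 ± 0.56 (adjusted p = 0.00503), a call lost without SI CD34+ FB replicate 3 (−2.58). These 2 of 9 genes compare with 1.21% of the 17564 genes tested. *Dhrs3*, at 2.74 ± 0.99, was called only without SI Fgfr2+ FB replicate 3 (4.96). *Adh1* was higher in CD34+ FB, at 5.85 ± 0.82, and *Lpl* lower, at −2.09 ± 0.50. These were the 2 called of 41 other pathway genes tested, and the *Lpl* call was kept in 1 of 6 fits with a library left out (without SI Fgfr2+ FB replicate 3) at −2.18 to −2.04. Over all genes, 126, 136 and 132 were called without SI CD34+ FB replicate 1, SI CD34+ FB replicate 2 and SI Fgfr2+ FB replicate 1, in place of 213. Pericyte markers summed to 3928 ± 318 CPM (SD, n = 3) in SI CD34+ FB, of which *Rgs5* was 3801 ± 326, and 2022 ± 168 CPM in SI Fgfr2+ FB. The sum rose through *Rgs5*, and 6 of the 8 markers (*Kcnj8*, *Abcc9*, *Notch3*, *Cspg4*, *Mcam* and *Esam*) had lower means in CD34+ FB. Smooth muscle markers, 6 of 6 present and led by *Acta2* on average, summed to 133 ± 16.0 CPM in SI CD34+ FB and 699 ± 179 CPM in SI Fgfr2+ FB, with *Cnn1* going the other way. The 4 PDGFRα hi FB markers, led by *Bmp5*, summed to 151 ± 10.8 and 577 ± 110 CPM, with *F3* going the other way. Markers of interstitial cells of Cajal, led by *Etv1*, summed to 26.9 ± 1.95 and 114.5 ± 23.3 CPM, and FB markers, led by *Col1a1*, to 39729 ± 13082 and 9802 ± 927 CPM, and the part of the lists was not tested.

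In colon *Rdh10* was lower in CD81+ FB, at 29.1, 15.6 and 20.3 CPM, than in CD90+ FB, at 102, 113 and 98.4 CPM. All 3 CD81+ FB libraries lay below all 3 CD90+ FB libraries. The log2 fold change was −2.27 ± 0.54 (SE; adjusted p = 0.0450), the 1 call among 9 genes, against 0.621% of all genes tested. It was lost whichever of the 6 libraries was left out (−2.54 to −2.08) and with only these 6 in the model. Called genes over all tested numbered 54 without CD81+ FB replicate 2, 60 without replicate 3, and 44, 51 and 49 without CD90+ FB replicates 1, 2 and 3, in place of 109. The 4 PDGFRα hi FB markers summed to 357, 163 and 121 CPM in CD81+ FB and 442, 610 and 477 CPM in CD90+ FB, with *Bmp5* the most abundant in CD90+ FB and *Bmp3* and *F3* going the other way. Markers of interstitial cells of Cajal, led by *Etv1*, had 21.7 ± 20.4 CPM (SD, n = 3) in CD81+ FB and 57.8 ± 4.11 CPM in CD90+ FB, and FB markers, led by *Col1a1*, had 38554 ± 9828 CPM and 18034 ± 2737 CPM, and their part was not tested. *Aldh1a3*, at −2.22 ± 0.55, missed the p-value threshold by edgeR (adjusted p = 0.0570) and was called by DESeq2 (0.00349; 0.00349 to 0.413 over its alternatives). Between colonic CD90+ FB and Fgfr2+ FB edgeR called 0 of 9 genes and 0 of all genes tested (0%), where 570 genes, 1 of them among the 9, had an unadjusted p under 0.05 and DESeq2 called 37, with 0 among the 9.

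SI pericytes had far less of the synthesis genes than SI FB or SMC. *Aldh1a1* was 1.29, 6.19 and 2.46 CPM in SI pericytes, and the log2 fold change against the mean of the 3 SI FB subsets was −6.35 ± 0.63 (SE; adjusted p = 1.18e-08). *Aldh1a2*, *Aldh1a3* and *Rdh10* were lower by the same test, at −6.22 ± 0.80, −5.86 ± 0.62 and −4.25 ± 0.56. *Rbp4* was lower too (adjusted p = 0.00146), with 3 counts over the SI pericyte libraries against 2054 over the SI FB libraries, a ratio, scaled for library size, of 0.00659 (95% interval 0.00136 to 0.0193, counting error only). PDGFRα hi FB held 268, 1573 and 107 of the 2054 counts, so this ratio rests on that subset and largely on its replicate 2. These 5 of 9 genes compare with 16.6% of all genes tested, and all 5 calls held whichever library was left out. *Dhrs3*, at 1.63 ± 0.70, was called only without SI Fgfr2+ FB replicate 3 (2.37). The *Cyp26b1* difference was not called by edgeR or DESeq2, was called by edgeR either with no filter on low counts or without SI PDGFRα hi FB replicate 2, and turned direction without SI pericyte replicate 3. The 6 smooth muscle markers, led by *Myh11* on average, had 3654.5 ± 803 CPM (SD, n = 3) in SI pericytes and means of 133 to 2862.5 CPM in the SI FB subsets, and *Acta2* and *Tagln* were lower in pericytes than in PDGFRα hi FB. The 5 endothelial markers, led by *Pecam1*, had 111 ± 32.0 CPM in SI pericytes and means of 37.8 to 56.3 CPM in the SI FB subsets, with no overlap. In SI pericytes, markers of interstitial cells of Cajal had 828 ± 296 CPM, of which *Ano1* was 778 CPM, against means of 26.9 to 469 CPM in the SI FB subsets. *Etv1* went the other way against SI PDGFRα hi FB and Fgfr2+ FB, where it had 448.5 and 112 CPM on average. The part of these lists was not tested.

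Against SMC the SI pericytes had less of the 3 *Aldh1a* genes and *Rdh10* and more *Dhrs3*. *Dhrs3* was 48.7, 15.1 and 86.6 CPM in pericytes and 2.32, 1.93 and 0.220 CPM in SMC, with no overlap and a log2 fold change, pericytes minus SMC, of 5.06 ± 1.103 (SE; adjusted p = 0.00248). *Aldh1a2* differed by −6.36 ± 0.83, *Aldh1a3* by −6.10 ± 0.65, *Aldh1a1* by −5.05 ± 0.62 and *Rdh10* by −3.05 ± 0.56. *Rdh10* was 4.93, 2.52 and 33.9 CPM in the pericyte libraries, and without SI pericyte replicate 3 it differed by −4.97. These 5 of 9 genes compare with 10.2% of all genes tested. With only the 6 libraries compared in the model, 3 of 9 and 393 of all genes were called, and *Dhrs3* (adjusted p = 0.0689; 1.10e-06 to 0.0689 over its alternatives) and *Rdh10* (0.167; 4.62e-08 to 0.167) were not. *Rbp4*, at −2.98 ± 1.14, was called without SMC replicate 1 (−3.52). FB markers, 4 of 4 present and led by *Col1a1*, summed to 4962 ± 1916 CPM (SD, n = 3) in SMC and 1613 ± 191 CPM in SI pericytes. Markers of interstitial cells of Cajal had 18.8 ± 11.5 CPM in SMC and 828 ± 296 CPM in SI pericytes, and PDGFRα hi FB markers, led by *Bmp5*, had 402.5 ± 46.4 CPM and 60.9 ± 25.0 CPM, and the part of the lists was not tested.

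Colonic pericytes had less *Aldh1a2*, *Aldh1a3*, *Aldh1a1* and *Rbp4* than the mean of the 4 colonic FB subsets. *Aldh1a2* was 1.83, 0.252 and 0.359 CPM, and its log2 fold change was −7.55 ± 0.87 (SE; adjusted p = 1.42e-07). *Aldh1a3* differed by −3.90 ± 0.56 and *Aldh1a1* by −3.32 ± 0.52. *Rbp4* (adjusted p = 8.30e-06) had 1 count over the pericyte libraries against 4308 over the FB libraries, a ratio, scaled for library size, of 0.00109 (95% interval 2.76e-05 to 0.00608, counting error only). PDGFRα hi FB held 792, 530 and 1116 of the 4308 counts. These 4 of 9 genes compare with 16.0% of all genes tested, and all 4 calls held whichever library was left out. *Rdh10* was not called, at −0.77 ± 0.43. *Lrat*, at 2.00 ± 0.78, was not called (adjusted p = 0.0737) and was called without colonic CD81+ FB replicate 2 (2.36) or colonic PDGFRα hi FB replicate 2 (2.66). It was also called with no filter on low counts. The 6 smooth muscle markers, led by *Myh11*, had 11094 ± 609 CPM (SD, n = 3) in colonic pericytes and means of 78.7 to 1663 CPM in the colonic FB subsets. In these pericytes, markers of interstitial cells of Cajal had 798 ± 107 CPM, of which *Ano1* was 723 CPM, against means of 21.7 to 253 CPM in the FB subsets. *Etv1* had a lower mean in pericytes than in colonic PDGFRα hi FB and Fgfr2+ FB, where it averaged 173 and 79.4 CPM. The part of these lists was not tested.

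Between SI and colonic pericytes only *Aldh1a2* was called among the 9, against 5.69% of all genes tested, and that call rested on 1 library. SI pericytes held 10, 145 and 8 counts of *Aldh1a2*, and colonic pericytes held 17, 2 and 5. The log2 fold change was 3.16 ± 0.79 (SE; adjusted p = 0.0184) and 0.90 without SI pericyte replicate 2, where it was not called. The call was also lost without colonic pericyte replicate 2 (2.77) or 3 (2.75). *Rdh10*, at −1.66 ± 0.54 (adjusted p = 0.0610), was called, at −3.58, without SI pericyte replicate 3. *Aldh1a1*, at −1.57 ± 0.55, was called without SI pericyte replicate 2 (−2.37) or colonic pericyte replicate 2 (−2.07). DESeq2 called both *Rdh10* and *Aldh1a1*, as did edgeR with no filter on low counts. *Aldh1a3*, at 1.60 ± 0.57, was not called by edgeR (adjusted p = 0.0860) and was called by DESeq2. With only these 6 libraries in the model edgeR called 0 of 13369 genes, 1094 of which had an unadjusted p under 0.05; DESeq2, in the model of all 30 libraries, called 2410. Without SI pericyte replicate 1 the genes called over all tested numbered 626, and without replicate 3 1710, in place of 1000. Smooth muscle markers, 6 of 6 present and led by *Myh11* on average, summed to 4576, 3105 and 3283 CPM in SI pericytes and 10392, 11471 and 11420 CPM in colonic pericytes. *Des* went the other way, with 1140 ± 53.8 CPM (SD, n = 3) in SI and 715 ± 66.1 CPM in colon. FB markers, led by *Col1a1*, had 1613 ± 191 CPM in SI and 958 ± 34.7 CPM in colon, with *Dcn*, *Lum* and *Pdgfra* going the other way. Endothelial markers, led by *Pecam1*, had 111 ± 32.0 CPM and 64.4 ± 15.1 CPM, with *Kdr* going the other way. PDGFRα hi FB markers, led by *Bmp5* on average, had 60.9 ± 25.0 CPM in SI and 152 ± 18.7 CPM in colon, with *Bmp3* and *F3* going the other way. The part of the lists was not tested.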

How the data were processed

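The authors trimmed reads with Trim Galore 0.4.0 and deposited, per library, kallisto 0.42.5 estimated counts, TPM values and effective lengths for 98492 transcripts. Of these, 97204 matched GENCODE mouse annotation (GRCm38) and were summed by symbol to 32386 genes, and the estimated counts were rounded; matched genes held 97.8% to 99.2% of each library's counts. Genes reaching 6 counts in 3 or more libraries of a model entered edgeR 4.0.16 (TMM, quasi-likelihood F test, R 4.3.3) and were called at a Benjamini-Hochberg adjusted p under 0.05 and an absolute log2 fold change above 1.5. Tissue and subset comparisons of Fgfr2+ and PDGFRα hi FB used their 12 libraries, and the others all 30. The test was checked on simulated data of independent libraries, with large changes in genes well above the floor. That check does not cover genes near the floor, changes near the fold threshold or libraries that share a mouse. P-values rest on the spread between libraries, which the models treated as independent because which of them share a mouse is not stated. The deposited TPM served only to check which population was highest, since a single transcript held up to 55.9% of it. CPM per kilobase divides each transcript's count by its deposited effective length. Alternatives were DESeq2 1.42.0, RLE factors, no filter on low counts, other sets of libraries in the model, the replicate number as a block, and leaving out each library. All 9 genes are named, and of 52 other pathway genes those called, except for results withheld for evaluation, which are not reported here; the members and lists were chosen with earlier results of these data known.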

Additional observations from a re-analysis of the deposited data

Results flagged for a closer look

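The tissue difference differed between the FB subsets, by the interaction term of the edgeR model, for *Lrat* (log2 8.99), *Rdh10* (log2 2.08) and *Ces1d* (log2 −3.41). *Lrat* was higher in SI than in colon by 9.11 in Fgfr2+ FB, and by 0.12, not called, in PDGFRα hi FB. *Rdh10* was higher in SI by 3.14 in Fgfr2+ FB and by 1.06, not called, in PDGFRα hi FB. *Ces1d* had 62.0 ± 15.2 CPM (SD, n = 3) in Fgfr2+ FB from SI and 211.5 ± 15.1 CPM in those from colon, while PDGFRα hi FB had 100.5 ± 57.7 CPM in SI and 30.7 ± 8.05 CPM in colon. Because the gates of both subsets differed between the tissues, tissue and gate cannot be told apart.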

How the results depend on the processing

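Of the 9 genes in 12 comparisons, 32 results were called. With another tool, scaling, filter or set of libraries, or with the block, 153 of their 160 values kept direction and call, 7 lost the call and 0 turned direction; with 1 library left out, 245 of 270 kept both and 25 lost the call. Among the 76 uncalled results 356 of 371 such values kept both, 11 became called and 4 turned direction, and with 1 library left out 508 of 567 kept both, 14 became called and 45 turned direction or reached 0. The highest population of each gene was the same with RLE factors as with TMM, and with deposited TPM as with CPM per kilobase; CPM and CPM per kilobase put *Dhrs3* and *Stra6* highest in different populations. DESeq2 gave no adjusted p for *Lpl* (SI pericytes against SMC, SI CD34+ against Fgfr2+ FB) or *Rxrg* (SI pericytes against FB). Depth limits *Stra6*, *Cyp26b1* and pericyte *Rbp4*, which rest on few counts. The cause of the changes below was not tested.

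Genes called over all tested numbered, by DESeq2, 520 and 1084 for the tissue difference in PDGFRα hi and Fgfr2+ FB, 561 for the interaction, 1174 and 650 for Fgfr2+ against PDGFRα hi FB in SI and colon, 2410 for pericytes by tissue, 2955 for SI pericytes against SMC, 598 for SI CD34+ against Fgfr2+ FB, 382 for colonic CD81+ against CD90+ FB and 37 for colonic CD90+ against Fgfr2+ FB. With all 30 libraries in 1 model they numbered 168, 255, 116, 443 and 234 in the first 5 of these, and 1 of the 9 genes was called for the interaction. With no filter they numbered 340 for the interaction, 167 for CD81+ against CD90+ FB and 3 for CD90+ against Fgfr2+ FB. With only the populations compared they numbered 0 for pericytes by tissue (edgeR; 1094 at an unadjusted p under 0.05, DESeq2 as above), 393 for SI pericytes against SMC, 395 for SI CD34+ against Fgfr2+ FB, 34 for CD81+ against CD90+ FB and 2 for CD90+ against Fgfr2+ FB. Of the 9 genes, pericytes by tissue gave 4 by DESeq2, 3 with no filter and 0 with only the populations compared, CD81+ against CD90+ FB gave 2, 2 and 0, and SI pericytes against SMC gave 3 with only the populations compared.

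With 1 library left out the genes called ranged from 183 to 219 and 275 to 499 for the tissue difference in PDGFRα hi and Fgfr2+ FB, 231 to 277 for colonic Fgfr2+ against PDGFRα hi FB, 626 to 1710 for pericytes by tissue, 126 to 180 for SI CD34+ against Fgfr2+ FB and 44 to 155 for CD81+ against CD90+ FB. Of the 9 genes the called ranged from 1 to 2 for PDGFRα hi FB by tissue, 0 to 2 for the interaction, 0 to 2 for pericytes by tissue and 1 to 3 for SI CD34+ against Fgfr2+ FB, and were 0 throughout for CD81+ against CD90+ FB.

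Values that turned direction were the *Aldh1a3* interaction with all 30 libraries (−0.002), *Dhrs3* between SI Fgfr2+ and PDGFRα hi FB with DESeq2 (0.10) and RLE (0.051), and *Cyp26b1* between SI pericytes and SMC with the replicate block (−0.84). With 1 library left out log2 ranges crossed or reached 0 as follows. For PDGFRα hi FB by tissue they were −0.86 to 2.81 for *Lrat*, −0.73 to 0.21 for *Stra6* and −7.11 to 0.79 for *Cyp26b1*. For the interaction they were −0.44 to 0.34 for *Aldh1a1*, −0.11 to 0.55 for *Aldh1a2*, −0.18 to 0.50 for *Aldh1a3* and −2.74 to 0.38 for *Dhrs3*. For SI Fgfr2+ against PDGFRα hi FB they were −0.15 to 0.51 for *Aldh1a2*, −2.27 to 0.54 for *Dhrs3* and −5.26 to 0 for *Cyp26b1*. In colon the same pair gave −0.20 to 0.046 for *Aldh1a2*, −0.37 to 0.99 for *Dhrs3*, −2.46 to 0.89 for *Lrat* and −0.58 to 2.29 for *Stra6*. Pericytes by tissue gave −1.14 to 0.40 for *Dhrs3*, −0.23 to 2.01 for *Lrat* and −8.79 to 3.84 for *Cyp26b1*. SI pericytes gave −2.41 to 0.066 for *Lrat* and −6.12 to 3.31 for *Cyp26b1* against SMC, and −3.41 to 5.97 for *Cyp26b1* and −0.009 to 2.40 for *Ppard* against FB. Colonic pericytes against FB gave −0.53 to 0.79 for *Dhrs3* and −2.27 to 3.43 for *Cyp26b1*. The range was −1.29 to 1.03 for *Rbp4* in SI CD34+ against Fgfr2+ FB and −0.75 to 1.25 for *Stra6* in CD81+ against CD90+ FB. CD90+ against Fgfr2+ FB gave −0.35 to 0.04 for *Aldh1a2*, −0.34 to 0.51 for *Aldh1a3*, −0.93 to 0.45 for *Dhrs3* and −1.85 to 1.00 for *Stra6*.

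Over all genes tested, same-numbered libraries did not deviate together (mean correlation −0.0002 over 18 pairs of the 12 libraries, 0 of them above 0.1, and 0.0076 over 135 pairs of all 30, 1 above 0.1). This value over all genes cannot show whether same-numbered libraries share a mouse or speak for single genes. For *Aldh1a2*, replicate 3 was the lowest library in every FB subset and in SI pericytes, and not in SMC or colonic pericytes. With the replicate number as a block, 253 genes were called for PDGFRα hi FB by tissue, 380 for Fgfr2+ FB by tissue and 175 for the interaction, no call among the 9 genes changed in any comparison, and *Cyp26b1* in SI pericytes against SMC, uncalled in both fits, read −0.84 in place of 1.65.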

Other observations

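The 3 comparisons of pericytes with FB or SMC had the most calls among the other pathway genes, as they did over all genes. Against SI FB, 13 of 41 tested were called in SI pericytes, 10 of them higher, where 16.6% of all genes were called. *Nr2f2* had 1795 ± 1067 CPM (SD, n = 3) in SI pericytes, and its log2 fold change was 5.08 ± 0.43 (SE). *Fabp5*, a fatty acid-binding protein gene whose product can carry retinoic acid, differed by 3.62 ± 0.61 and by 1.99 without SI pericyte replicate 1, and *Cd36*, a lipid uptake receptor gene, by 7.59 ± 1.21. *Tgm2* (−2.34 ± 0.32), *Adh1* (−4.44 ± 0.84) and *Ces1d* (−8.39 ± 0.90) were lower. These 6 calls held whichever library was left out. The call of *Ppard*, a nuclear receptor gene, was lost without SI pericyte replicate 2 (−0.009), as was that of *Nr2f1* (2.205). *Rxrg*, at 0 counts in all SI FB libraries, and *Rdh13* (1.52) lost theirs without SI pericyte replicate 1. *Rdh5* and *Aldh8a1* were called and lost the call without SI pericyte replicate 1 or 3 (lowest values 1.88 and 1.38), and *Rdh9* kept its call in 5 of 12 such fits (0.70 to 2.31). *Aldh8a1* also lost its call with no filter on low counts, and *Rdh9* with the replicate number as a block.

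Against colonic FB, 6 of 41 were called in colonic pericytes, where 16.0% of all genes were called. *Nr2f2* (3.62 ± 0.39; log2, SE) was higher and *Adh1* (−7.17 ± 0.89) and *Ces1d* (−8.38 ± 0.89) were lower in fits that each left out 1 library as well. *Rarb*, a retinoic acid receptor gene that itself responds to retinoic acid, was higher at 3.55 ± 1.09, a call lost without colonic pericyte replicate 2 (2.01). *Fabp5* was higher at 1.96 ± 0.58, lost without colonic pericyte replicate 1 (1.56), and *Nr2f1* was higher at 2.00 ± 0.70 and kept its call in 4 of 15 such fits (1.36 to 2.23). *Fabp5* also lost its call with no filter on low counts, and *Rarb* and *Nr2f1* with the replicate number as a block.

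Against SMC, 8 of 41 were called in SI pericytes, 6 of them higher, where 10.2% of all genes were called. *Nr2f2* (5.67 ± 0.69; log2, SE) and *Cd36* (10.35 ± 2.26) were higher whichever library was left out, as was *Lpl* (3.63 ± 0.54, and 2.03 without SI pericyte replicate 1). *Aldh8a1* lost its call without SMC replicate 1 or 3 (lowest value 2.51), *Fabp5* without SI pericyte replicate 1 (1.21) or any SMC replicate, and *Ppard* without SI pericyte replicate 2 (0.36) or SMC replicate 1 or 2. *Tgm2* (−1.61 ± 0.35) and *Rdh14* (−3.44) were lower. *Tgm2* lost its call without SI pericyte replicate 3 (−1.36), and *Rdh14* without SI pericyte replicate 1 or 2 or SMC replicate 3 (−1.33). With only the 6 libraries compared in the model, *Nr2f2* and *Cd36* kept their calls and the other 6 genes, *Lpl* among them, lost theirs. *Fabp5*, *Aldh8a1* and *Rdh14* also lost theirs with no filter on low counts, and *Fabp5*, *Ppard* and *Rdh14* with the block. In the remaining comparisons edgeR called 0 of 41 between SI and colonic pericytes (7 at an unadjusted p under 0.05; DESeq2 called 3), 0 of 41 between colonic CD81+ and CD90+ FB (5; DESeq2 called 3) and 0 of 41 between colonic CD90+ and Fgfr2+ FB (5; DESeq2 called 0).

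Among the receptor genes *Rara* had means of 49.1 to 127 CPM and *Rxra* of 46.4 to 245 CPM over the 10 populations. *Rarg* ran from 0.764 ± 0.694 CPM (SD, n = 3) in SI PDGFRα hi FB to 39.6 ± 2.00 CPM in colonic Fgfr2+ FB. Between Fgfr2+ and PDGFRα hi FB and between tissues in these subsets, edgeR called 0 of the 6 receptor genes tested. DESeq2 called *Rarg* by tissue in PDGFRα hi FB and between the subsets in SI.

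Over the 10 population means the genes whose log2 CPM pattern was most like that of *Aldh1a3*, by Pearson correlation among 17563 genes, were *Fbxl7* (0.944), *Mlkl* (0.934) and *Msc* (0.933). For *Aldh1a1* they included *Pcdhb22* (0.972) and *Chrnb1* (0.961), and for *Aldh1a2* *Stox2* (0.980), *Dchs1* (0.979) and *Pcdhga7* (0.975). For *Rdh10* they were *Itga6* (0.953), *Araf* (0.949) and *Evl* (0.949). *Lrat* was most like *Ighg2b* (0.955), *Cntnap3* (0.927) and *Rtn4rl2* (0.926), *Dhrs3* most like *Maff* (0.961), *Tmem97* (0.955) and *Sult6b2* (0.953), and *Rbp4* most like *Wnt5b* (0.969), *Chst11* (0.949) and *Riok2* (0.941). Among the 9 genes the closest pair was *Aldh1a2* and *Aldh1a3* (0.881), and *Aldh1a3* and *Dhrs3* ran in opposite directions (−0.727). Among the 17563 genes, however, *Aldh1a3* had only rank 213 in likeness to *Aldh1a2*. *Dhrs3* had rank 17147 in likeness to *Aldh1a3*, so other genes were more opposed. The points of each correlation are means of the same libraries and share their depth.

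The RefSeq promoter table (GRCm38.p6, windows of 300 bases around a gene's start) held 14 windows of 7 of the 9 genes and none of *Aldh1a3* or *Rdh10*. Some genes had several windows, *Stra6* and *Dhrs3* most of all, and some windows of each of these overlapped, so the windows are not independent. On either strand AGGTCA, the half-site that retinoic acid receptors are known to bind, was in 0 of the 14, against 16.3% of 32851 windows of all genes. A search for this exact sequence in 300 bases cannot tell whether the receptors bind these genes. GGGCGG was in 6 of 14 against 35.7%, and TATAAA in 2 of 14 against 13.6%. None of these 3 motifs contains another. The windows of *Lrat* (chr3:82903925-82904224, minus strand) and *Aldh1a2* (chr9:71215539-71215838, plus strand) are shown because both genes were higher in SI than in colonic Fgfr2+ FB. Capitals mark GGGCGG on either strand, found in *Lrat* at 2 places and in *Aldh1a2* at 0.
Lrat: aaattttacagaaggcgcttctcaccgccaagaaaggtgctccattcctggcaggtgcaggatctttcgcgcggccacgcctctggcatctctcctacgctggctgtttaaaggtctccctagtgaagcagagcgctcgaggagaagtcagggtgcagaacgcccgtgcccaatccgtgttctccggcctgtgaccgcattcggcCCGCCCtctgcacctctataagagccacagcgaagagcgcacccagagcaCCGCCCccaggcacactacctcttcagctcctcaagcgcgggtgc
Aldh1a2: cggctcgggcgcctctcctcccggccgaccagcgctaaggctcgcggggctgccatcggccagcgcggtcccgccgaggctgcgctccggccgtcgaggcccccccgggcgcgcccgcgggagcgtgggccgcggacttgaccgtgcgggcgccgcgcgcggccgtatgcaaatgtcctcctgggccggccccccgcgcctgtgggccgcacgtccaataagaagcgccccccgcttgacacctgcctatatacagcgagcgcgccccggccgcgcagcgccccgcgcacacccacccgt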
